A study of Mus musculus with 96 samples.

Results

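The prefrontal cortex (PFC) of mice with testes was compared between XXSry and XY-Sry animals, and the comparison was followed across the genes of the autosomes, chromosomes 1 to 19. Members were the 24 PFC libraries whose genotype label was XXSry (12) or XY-Sry (12), of 96 libraries in the series. Of 19918 genes measured, 19046 lay on these autosomes, and 17353 of them had enough counts to be tested. The mice come from a model that separates sex chromosomes from gonads: the testis-determining gene Sry is absent from the Y chromosome (written Y-) and is supplied instead by an autosomal transgene. Both groups compared here carry that transgene and have testes: XXSry mice have 2 X chromosomes, and XY-Sry mice have 1 X and the Y-. Each group held 6 unstressed controls and 6 mice given subchronic variable stress, here restraint in 3 sessions of 1 h on alternating days over 6 days. No animal gave more than 1 PFC library according to the labels, and n therefore counts animals. XX and XY- mice, which lack the transgene and have ovaries, and the nucleus accumbens (NAc) of the same XXSry and XY-Sry animals served as comparisons. Age is not given in the labels. The animals came from 3 cohorts, which the labels give as the batch, and these were unevenly shared: 9, 2 and 1 XXSry mice and 3, 5 and 4 XY-Sry mice in cohorts 1, 2 and 3.

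Mice of the 2 genotypes differ in both sex chromosomes at once, so an X-linked dose, a Y-linked gene and anything these alter on other chromosomes cannot be told apart. The Y- of this model is known, in addition, to hold a segment moved there from the distal X chromosome, with Tlr7 in it, an endosomal receptor for single-stranded RNA whose signal leads to interferon production. Interferons are cytokines that bind cell-surface receptors and, through a relay of kinases and transcription factors, switch on a large set of autosomal genes. Products of those genes block viral replication, mark infected cells and load peptides onto MHC class I molecules. In brain, microglia, the resident macrophages, express many of them at a low level without infection.

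Total counts ran from 67.6 to 104.4 M per PFC library (mean 85.0 ± 9.73 M, SD, n = 24). Xist, the RNA that coats the silenced X chromosome, stood between 925.3 and 1224 CPM in XXSry libraries and between 0.0135 and 0.689 CPM in XY-Sry libraries. The Y-linked gene Uty had no read in any XXSry library and 19.4 to 25.8 CPM in XY-Sry libraries. CPM are counts scaled to a common library size, here with the trimmed-mean (TMM) method. The cortical marker Slc17a7, a vesicular glutamate transporter, had a median of 1457 CPM in XXSry and 1447 CPM in XY-Sry libraries.

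Few autosomal genes separated the genotypes, and nearly all of those that did were lower in XXSry mice. A gene was called when its adjusted p from edgeR's quasi-likelihood test fell below 0.05, with treatment and cohort in the model. By that rule 18 of 17353 autosomal genes were called (0.104%), 17 of them lower (0.098%) and 1 higher (0.00576%) in XXSry. At an unadjusted p below 0.05 the counts were 692 lower (3.99%) and 432 higher (2.49%), with a median log2 fold change (log2FC, XXSry minus XY-Sry) over all autosomal genes of 0.0018. No autosomal gene, 0 of 17353 (0%), had 2 sets of 12 libraries that did not overlap. Of the 17 genes that were lower, 9 belonged to the 23 gene lists followed here (interferon effectors, interferon-induced GTPases, MHC class I, actin) and 8 to none of them. They were spread over 11 chromosomes, with no more than 2 on any of them. DESeq2 called 51 genes, all 18 among them, and an edgeR fit that added the 24 libraries of mice with ovaries called 6, of which 1 was shared. Leaving out 1 library at a time gave 5 to 38 called genes. Without XY-Sry control replicate 38 only Lgals3bp, H2-D1, Actb, Ifi204 and Obox3-ps7 were still called, the same 5 that were called in all 24 of these fits. Without XY-Sry stress replicate 7 the count was 9, without XXSry control replicate 34 it was 10, and without XXSry control replicate 39 it was 38.

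**Figure D1:**
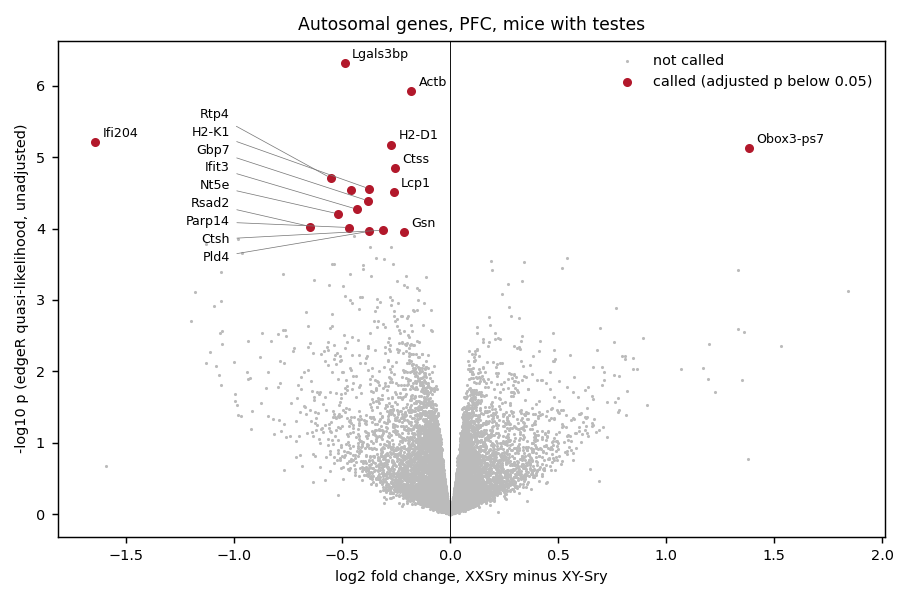
Each point is 1 of the 17353 autosomal genes tested in the PFC; the horizontal axis is the log2FC of XXSry minus XY-Sry mice and the vertical axis is -log10 of the unadjusted edgeR p. The 18 called genes are red, and those described are named: 17 lie left of 0 and Obox3-ps7 lies right of it.

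Genes that interferon induces made up the largest named group among those that were lower in XXSry mice. Of 54 interferon effectors tested, 5 were called lower and none higher, and 49 were below 0 and 5 above. At an unadjusted p below 0.05 there were 33 effectors in the lower direction and 1 in the higher. Their median log2FC was -0.25, against 0.0018 over all autosomal genes, of which 8441 of 17353 were below 0. Members of the lists were chosen with earlier results of these data known, so these counts are a description and no separate support. The 5 effectors called were Lgals3bp, Rtp4, Ifit3, Rsad2 and Parp14. In bulk tissue, fewer cells of a type and less RNA per cell cannot be told apart.

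Lgals3bp (chr11:118392751-118402092, GRCm38, as for all gene coordinates here) encodes a secreted glycoprotein that binds galectins. Its lowest, median and highest values were 9.12, 10.2 and 12.1 CPM in the 12 XXSry libraries and 10.5, 13.9 and 17.1 CPM in the 12 XY-Sry libraries. The groups overlapped narrowly: 10 XY-Sry libraries lay above every XXSry library. The log2FC was -0.49 (SE 0.075, edgeR adjusted p = 0.00038). Ifit3 (chr19:34583531-34588731), whose product binds with its relatives to viral RNA, ran from 4.06 through 5.03 to 5.63 CPM in XXSry and from 5.30 through 6.46 to 10.7 CPM in XY-Sry libraries. Here 11 XY-Sry libraries exceeded the highest XXSry library (log2FC -0.43, SE 0.091, edgeR adjusted p = 0.028). Ifit3b, a near-identical neighbour, can share reads with Ifit3, so the value of each is uncertain.

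Rsad2 (chr12:26442746-26456452) encodes viperin, an enzyme that makes a chain-terminating nucleotide against RNA viruses. It ran from 1.13 through 1.81 to 2.09 CPM in XXSry and from 1.38 through 2.41 to 4.58 CPM in XY-Sry libraries. All 12 XXSry libraries lay below the XY-Sry median, and the log2FC was -0.65 (SE 0.14, edgeR adjusted p = 0.045). Parp14 (chr16:35832874-35871544), a mono-ADP-ribosyltransferase, ran from 2.74 through 3.995 to 4.88 CPM and from 3.62 through 5.09 to 7.02 CPM. Its log2FC was -0.47 (SE 0.10, edgeR adjusted p = 0.045). Rtp4 (chr16:23520291-23614222), an interferon-induced receptor transporter protein, ran from 1.18 through 1.33 to 1.70 CPM and from 1.30 through 1.92 to 2.60 CPM. Its log2FC was -0.55 (SE 0.11, edgeR adjusted p = 0.012), but it overlaps Masp1 on the opposite strand, and with no strand setting stated its reads cannot be told apart from those of Masp1.

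Other effectors had differences of similar size that did not pass the test. Usp18, which removes ISG15 from proteins, had medians of 0.456 CPM in XXSry and 0.874 CPM in XY-Sry libraries (log2FC -0.77, SE 0.19, edgeR adjusted p = 0.12). Oasl2, of the oligoadenylate synthetase family, had medians of 2.90 and 4.78 CPM (log2FC -0.63, SE 0.16, edgeR adjusted p = 0.14). For Ifitm3, which blocks viral entry, they were 4.05 and 4.70 CPM (log2FC -0.46, SE 0.12, edgeR adjusted p = 0.12). For Ifit1 they were 2.08 and 2.82 CPM (log2FC -0.57, SE 0.18, edgeR adjusted p = 0.41). Members covered a span from -0.77 for Usp18 to 0.11 at the upper end.

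Interferon's transcription factor complex binds the interferon-stimulated response element, so promoters of the called genes were searched for it. The motif searched was GAAA, then any 2 bases, then GAAA, on both strands and with no second motif, in RefSeq windows (GRCm38.p6) of 250 bases before to 50 after the gene start. Windows were matched for 11 of the 17 genes that were lower, and 4 of those 11 held a match (36.4%). Among interferon effectors 19 of 42 windows held one (45.2%), and among all autosomal genes tested 441 of 12002 did (3.67%). The 4 are shown because they belong to called genes of 3 roles, the effectors Rsad2 and Ifit3, the GTPase Gbp7 and the protease Ctss. Each line gives the 160 bases before the gene start, 5′ to 3′ on the gene's strand, with the match in capitals. A match on the opposite strand reads TTTC, any 2 bases, TTTC.
Rsad2, chr12:26456453-26456612, minus strand: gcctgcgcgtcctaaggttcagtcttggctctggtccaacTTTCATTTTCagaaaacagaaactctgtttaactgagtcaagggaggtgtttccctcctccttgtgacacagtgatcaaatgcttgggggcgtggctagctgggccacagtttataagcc
Ifit3, chr19:34583369-34583528, plus strand: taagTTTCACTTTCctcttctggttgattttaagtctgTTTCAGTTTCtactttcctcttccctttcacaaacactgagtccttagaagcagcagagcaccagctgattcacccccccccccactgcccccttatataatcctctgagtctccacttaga
Gbp7, chr3:142530176-142530335, plus strand: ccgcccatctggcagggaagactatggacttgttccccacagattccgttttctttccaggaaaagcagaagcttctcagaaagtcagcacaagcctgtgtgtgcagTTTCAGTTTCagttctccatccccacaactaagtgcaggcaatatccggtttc
Ctss, chr3:95526626-95526785, plus strand: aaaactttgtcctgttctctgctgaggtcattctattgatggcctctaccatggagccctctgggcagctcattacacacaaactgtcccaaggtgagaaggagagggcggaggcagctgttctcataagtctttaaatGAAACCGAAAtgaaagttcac
The first base of the match lay 120 bases before the start in Rsad2, 156 and 122 in Ifit3, 53 in Gbp7 and 21 in Ctss. A match is a description of these letters, and binding was not measured.

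The level of the interferon effectors as a list varied more among XY-Sry than among XXSry libraries. The mean log2(CPM + 1) over the 54 members ran from 2.00 through a median of 2.13 to 2.203 in XXSry libraries. In XY-Sry libraries it ran from 2.12 through 2.28 to 2.51. The XXSry libraries formed a tight set, and the wider XY-Sry set reached from within it to well above it. These values are not adjusted for cohort, and cohorts were unevenly shared between the genotypes. The lowest and the highest XY-Sry value both came from cohort 2. In cohort 1 XY-Sry values ran from 2.28 to 2.38 and XXSry values from 2.00 to 2.203. Whether the wider spread goes with genotype or with cohort was not tested. XY-Sry control replicate 33 was the highest, followed by XY-Sry control replicate 38 and XY-Sry stress replicate 7. Replicate 33 also held the highest XY-Sry value of 6 of the 18 called genes, replicate 7 of 5 and replicate 38 of 3. Without replicate 33 the 54 members had 28 with an unadjusted p below 0.05 in the lower direction and a median of -0.23.

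**Figure D2:**
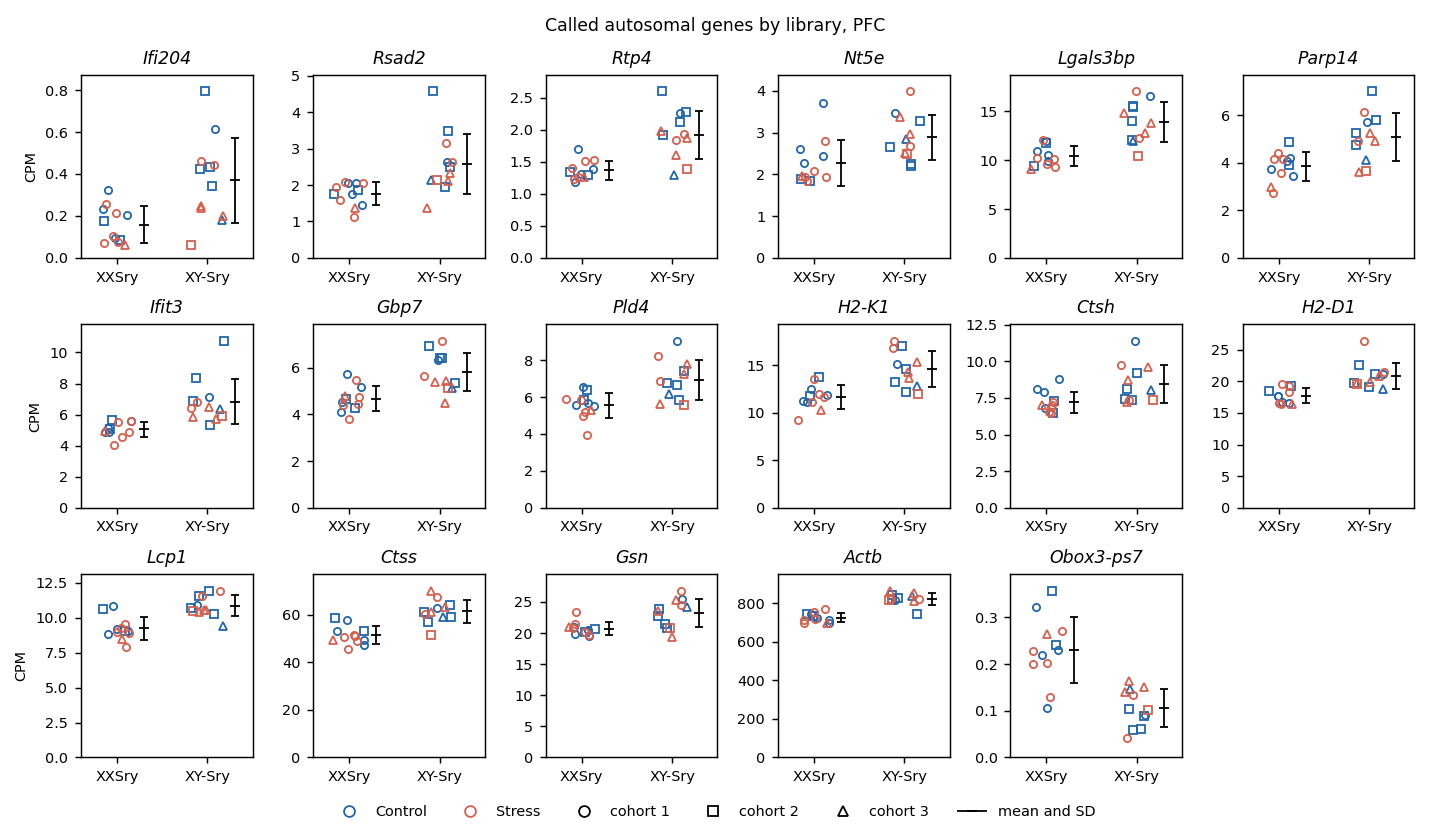
CPM of each called gene described, in the 12 XXSry and 12 XY-Sry PFC libraries, 1 point per animal; colour gives treatment, shape gives cohort, and bars give the mean and SD. XXSry points sit lower in every panel but that of Obox3-ps7, and the groups overlap in every panel.

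Interferon-induced GTPases, guanylate-binding proteins and immunity-related GTPases that attack the vacuoles of intracellular pathogens, had the lowest list median. All 16 tested were below 0, 13 had an unadjusted p below 0.05, and 1 was called, with a median log2FC of -0.49. Over all autosomal genes 3.99% had such a p in the lower direction and 0.098% were called lower. The called GTPase was Gbp7 (chr3:142530342-142550149). It ran from 3.82 through 4.61 to 5.73 CPM in XXSry and from 4.47 through 5.55 to 7.15 CPM in XY-Sry libraries, with 5 XY-Sry libraries above every XXSry library (log2FC -0.38, SE 0.079, edgeR adjusted p = 0.022). Gbp3, at 3.55 and 4.96 CPM in the median XXSry and XY-Sry library, had a log2FC of -0.49 (SE 0.13, edgeR adjusted p = 0.20). Irgm2, at 3.04 and 3.91 CPM, had -0.55 (SE 0.15, edgeR adjusted p = 0.26). A library or a pair of them stood apart in each group. The mean log2(CPM + 1) over the 16 GTPases was 2.16 in XY-Sry stress replicate 30 and 2.02 in XY-Sry control replicate 33. In the other 10 XY-Sry libraries it was 1.44 to 1.72. It was 1.85 in XXSry stress replicate 4, against 1.28 to 1.51 in the other 11 XXSry libraries, so that the ranges overlapped also without these 3. Members of this family share sequence, so reads may be split between them.

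Ifi204 (chr1:173747293-173766943), a DNA-binding protein of the PYHIN family that senses foreign DNA, had the lowest fold change of the called genes and one of the lowest levels. It ran from 0.0628 through 0.138 to 0.322 CPM in XXSry and from 0.0635 through 0.384 to 0.795 CPM in XY-Sry libraries (log2FC -1.64, SE 0.30, edgeR adjusted p = 0.0043). It lies below the level of 1 CPM used to choose the genes described, so it is named after its values were seen, and its family members share sequence.

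Receptors, adaptors and transcription factors of the interferon pathway formed a separate list. Of 28 tested none was called and 4 had an unadjusted p below 0.05, all lower in XXSry, with a median log2FC of -0.062. Irf7, the transcription factor that amplifies interferon production downstream of endosomal receptors, had medians of 1.51 CPM in XXSry and 2.01 CPM in XY-Sry libraries (log2FC -0.55, SE 0.13, edgeR adjusted p = 0.10). It overlaps Phrf1 on the opposite strand.

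Transcripts of H2-D1 and H2-K1, heavy chains of MHC class I, were lower in XXSry mice. Of 22 genes of the MHC class I pathway tested, 2 were called lower, 12 had an unadjusted p below 0.05 in that direction, 20 were below 0 and the median was -0.17. The shares over all autosomal genes were 0.098% called lower and 3.99% with such a p. H2-D1 (chr17:35262730-35267499), a classical heavy chain, ran from 16.4 through 17.7 to 19.5 CPM in XXSry and from 18.8 through 20.4 to 26.4 CPM in XY-Sry libraries. In all, 10 XY-Sry libraries lay above every XXSry library (log2FC -0.27, SE 0.050, edgeR adjusted p = 0.0045). H2-K1 (chr17:33996017-34000347), the other, ran from 9.20 through 11.7 to 13.8 CPM and from 11.9 through 14.4 to 17.6 CPM (log2FC -0.37, SE 0.074, edgeR adjusted p = 0.016). The shared light chain B2m had medians of 56.9 and 60.8 CPM and did not pass (log2FC -0.16, SE 0.058, edgeR adjusted p = 0.53). Tap1, which pumps peptides to these molecules, was just outside the threshold (log2FC -0.37, SE 0.087, edgeR adjusted p = 0.070) and overlaps Psmb9. Class I genes share long stretches of sequence, so reads of H2-D1 and H2-K1 may be split with relatives.

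Among the 8 lower genes outside the lists, Ctss, Ctsh, Pld4 and Lcp1 are known from phagocytes or their lysosomes. Ctss (chr3:95526786-95556403), the protease cathepsin S that processes the MHC class II chaperone, ran from 45.6 through 50.9 to 58.8 CPM in XXSry and from 51.7 through 61.3 to 70.2 CPM in XY-Sry libraries. Its log2FC was -0.25 (SE 0.049, edgeR adjusted p = 0.0089). Ctsh (chr9:90054152-90076089), cathepsin H, ran from 6.44 through 7.02 to 8.81 CPM and from 7.21 through 8.08 to 11.4 CPM (log2FC -0.31, SE 0.069, edgeR adjusted p = 0.048). For Ctss 10 XY-Sry libraries, and for Ctsh 4, lay above every XXSry library. Pld4 (chr12:112760655-112768990), an exonuclease that digests single-stranded nucleic acid in endolysosomes and so removes ligands of receptors such as Tlr7 and Tlr9, ran from 3.95 through 5.63 to 6.56 CPM and from 5.56 through 6.82 to 9.04 CPM (log2FC -0.38, SE 0.084, edgeR adjusted p = 0.048).

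Lcp1 (chr14:75131101-75230842), the leukocyte actin bundler L-plastin, ran from 7.88 through 9.06 to 10.9 CPM and from 9.44 through 10.6 to 11.9 CPM (log2FC -0.26, SE 0.053, edgeR adjusted p = 0.017). For Lcp1, 9 XXSry libraries lay below every XY-Sry library. Lcp1 overlaps an annotated gene on the opposite strand that is not among the genes measured. With no strand setting stated, some of its reads may belong to that gene.

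Markers of microglia, the resident macrophages of the brain, were given beside these genes. Which cells the reads of the called genes came from was not tested. Of 17 microglia markers tested none was called, and 4 had an unadjusted p below 0.05 in the lower direction and 1 in the higher. Of the 17 markers 12 were below 0 and 5 above, with a median log2FC of -0.067. Their summed level ran from 446.2 to 562.8 CPM in XXSry and from 464.9 to 549.6 CPM in XY-Sry libraries, and no marker was at 0 in all libraries. P2ry12, Tmem119 and Cx3cr1, receptors and a membrane protein of this list, had log2FC values of 0.066, -0.023 and 0.052 (edgeR adjusted p = 0.91, 0.99 and 0.95). Siglech, a sialic acid receptor, had -0.20 (SE 0.057, edgeR adjusted p = 0.27) and Fcrls, an Fc receptor-like scavenger, 0.21 (SE 0.064, edgeR adjusted p = 0.35). P2ry12, Cx3cr1 and Fcrls were among the 5 markers above 0, while 12 of the 17 lay below it. All 17 tested genes of the activated-microglia list were below 0, 7 with an unadjusted p below 0.05 and none called, with a median of -0.12. Its lowest was Itgax, at 0.155 and 0.306 CPM in the median XXSry and XY-Sry library (log2FC -0.77, SE 0.23, edgeR adjusted p = 0.35). The part of microglial number in the called genes was not tested.

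Actb and Gsn, genes of the actin cytoskeleton, and Nt5e were lower at very different levels. Actb (chr5:142903115-142906754), cytoplasmic beta-actin and a common reference gene in expression assays, ran from 696.1 through 723.2 to 768.4 CPM in XXSry and from 744.4 through 822.6 to 865.7 CPM in XY-Sry libraries. The overlap came from 1 XY-Sry library, control replicate 33, and the other 11 lay above every XXSry library (log2FC -0.18, SE 0.029, edgeR adjusted p = 0.00089). Gsn (chr2:35256380-35307892), gelsolin, which severs actin filaments, ran from 19.6 through 20.6 to 23.4 CPM and from 19.4 through 23.7 to 26.8 CPM (log2FC -0.21, SE 0.047, edgeR adjusted p = 0.049). It was named after its values were seen. Nt5e (chr9:88327197-88372092), CD73, the ectoenzyme that makes adenosine from AMP, ran from 1.83 through 2.03 to 3.70 CPM and from 2.202 through 2.77 to 3.99 CPM (log2FC -0.52, SE 0.11, edgeR adjusted p = 0.031). Only 1 XY-Sry library exceeded the highest XXSry library for Nt5e, while 7 XXSry libraries lay below every XY-Sry library.

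Actb was the 1 called member of the list of actin cytoskeleton genes. Of 39 tested, 11 had an unadjusted p below 0.05 in the lower direction and 28 were below 0, with a median of -0.036. The share of all autosomal genes with such a p was 3.99%. Cnn2, calponin 2, which binds actin filaments, was the first gene outside the threshold (log2FC -0.44, SE 0.10, edgeR adjusted p = 0.054). Actg1, cytoplasmic gamma-actin, had medians of 238 and 263 CPM (log2FC -0.13, SE 0.045, edgeR adjusted p = 0.49). Actb and Actg1 share much of their coding sequence and Actb has processed copies in the genome, so the counting may split their reads. Next to the threshold on its inner side were Pld4 and Gsn, with the adjusted p-values given above from edgeR. Next on its outer side after Cnn2 were Omd, a bone and connective-tissue proteoglycan gene (log2FC -0.98, edgeR adjusted p = 0.057), and Slc22a2, an organic cation transporter gene (-1.13, edgeR adjusted p = 0.065).

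**Figure D3:**
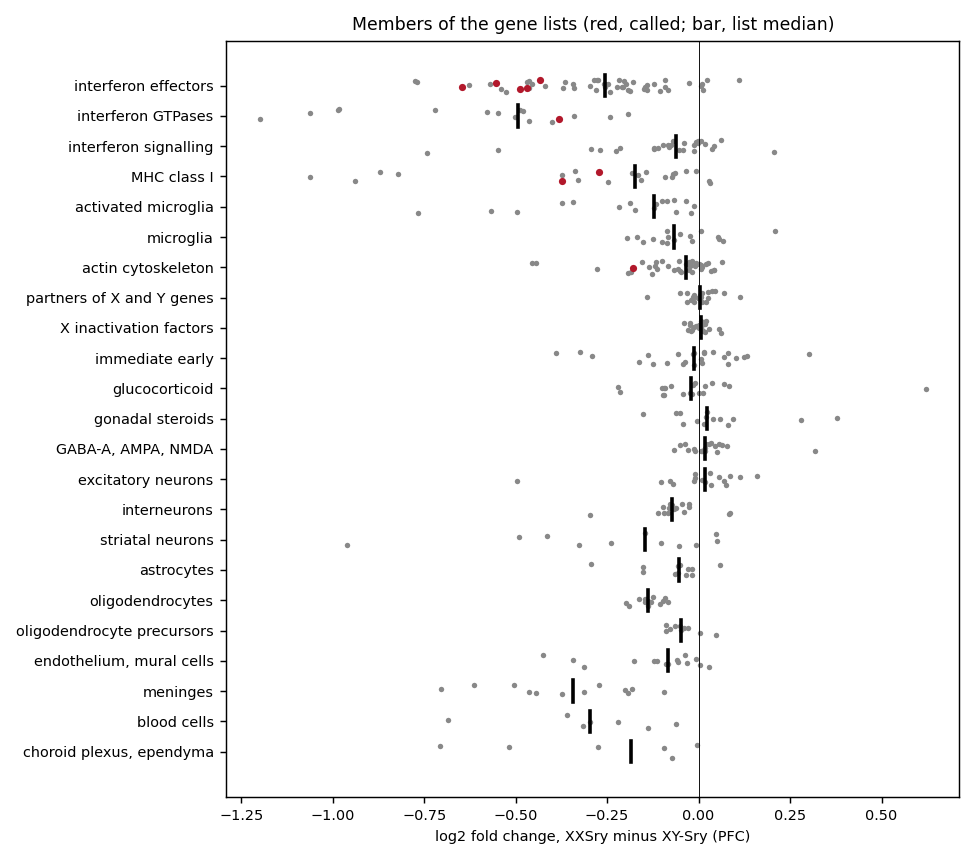
Each point is the log2FC, XXSry minus XY-Sry in the PFC, of 1 autosomal member of the list named at left; called genes are red and black bars are list medians. Interferon-induced GTPases have the lowest median (-0.49), and lists of excitatory neurons, X inactivation factors and partners of sex-linked genes sit around 0.

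The 1 gene called higher in XXSry mice was Obox3-ps7 (chr7:14634039-14634573), annotated as an unprocessed pseudogene of an oocyte homeobox family. It ran from 0.106 through 0.229 to 0.357 CPM in XXSry and from 0.0411 through 0.102 to 0.164 CPM in XY-Sry libraries (log2FC 1.38, SE 0.25, edgeR adjusted p = 0.0048). It lies below 1 CPM, was named after its values were seen, and has relatives of similar sequence that could share its reads. The 5 described genes with the smallest p in the higher direction did not pass in edgeR, while DESeq2 called all 5, with adjusted p-values from 0.017 to 0.039. Trhr, the receptor for thyrotropin-releasing hormone, had medians of 7.12 CPM in XXSry and 5.20 CPM in XY-Sry libraries (log2FC 0.54, SE 0.13, edgeR adjusted p = 0.094). Mlph, melanophilin, an adaptor between vesicles and myosin, had medians of 1.84 and 1.31 CPM (log2FC 0.52, SE 0.13, edgeR adjusted p = 0.11). Nabp1, a single-stranded DNA-binding protein, had 18.8 and 16.8 CPM (log2FC 0.19, SE 0.046, edgeR adjusted p = 0.099). Traip, a ubiquitin ligase of the replisome, had 12.3 and 10.2 CPM (log2FC 0.27, SE 0.069, edgeR adjusted p = 0.15). Glt8d2, a glycosyltransferase gene that overlaps Tdg on the opposite strand, had 40.6 and 36.2 CPM (log2FC 0.19, SE 0.048, edgeR adjusted p = 0.11).

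Genes linked to the sex chromosomes by function, and genes of neurons, stress and steroid hormones, were not called in any list. Autosomal relatives and binding partners of X- and Y-linked dosage genes had 0 of 23 called, 1 with an unadjusted p below 0.05 in the lower direction, and a median of 0.0034. Among them Kdm5b, an autosomal histone demethylase related to X-linked Kdm5c and Y-linked Kdm5d, had a log2FC of 0.037 (SE 0.025, edgeR adjusted p = 0.91). Autosomal factors of X inactivation had 0 of 22 called, none with an unadjusted p below 0.05 and a median of 0.0054. Immediate early genes had 0 of 25 called and a median of -0.011, and the 1 with an unadjusted p below 0.05 was Nr4a3, a nuclear receptor (log2FC 0.30, SE 0.11, edgeR adjusted p = 0.54). Glucocorticoid receptor signalling had 0 of 20 called, 3 with an unadjusted p below 0.05 and a median of -0.020. In it Fkbp5, a chaperone that the receptor induces, had medians of 19.2 and 20.4 CPM (log2FC -0.099, SE 0.043, edgeR adjusted p = 0.70). Gonadal steroid synthesis and receptors had 0 of 14 called and a median of 0.022. Subunits of GABA-A, AMPA and NMDA receptors had 0 of 20 called and a median of 0.018. Excitatory neuron markers had 0 of 17 called, 7 below 0 and a median of 0.017. Interneuron markers had 0 of 17 called, 15 below 0 and a median of -0.072. For the last 4 lists the counts with an unadjusted p below 0.05 were 1, 0, 3 and 1.

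Markers of cells and tissue around the PFC were followed for the same libraries, and none was called. Striatal neuron markers had 9 of 11 below 0, 6 with an unadjusted p below 0.05 in the lower direction, and a median of -0.15. Drd2, the D2 dopamine receptor, ran from 0.350 through 0.628 to 0.811 CPM in XXSry and from 0.518 through 0.638 to 2.52 CPM in XY-Sry libraries (log2FC -0.96, SE 0.23, edgeR adjusted p = 0.084). The medians were close and a few XY-Sry libraries were high: the summed level of the list was 328.0 CPM in XY-Sry stress replicate 30 and 302.6 CPM in XY-Sry control replicate 38, against 259.7 to 282.1 CPM in XXSry libraries. Meningeal markers had 12 of 12 below 0, 4 with an unadjusted p below 0.05 and a median of -0.34. Their summed level overlapped widely, from 189.1 to 489.7 CPM in XXSry and from 213.8 to 622.0 CPM in XY-Sry libraries. The highest were XY-Sry control replicate 38 (622.0 CPM) and XY-Sry stress replicate 7 (539.6 CPM), the same libraries without which 5 and 9 genes were called and which held the highest XY-Sry value of 3 and 5 called genes. Ptgds, a prostaglandin D synthase gene of this list, held most of the summed meningeal level, with medians of 248 and 287 CPM (log2FC -0.51, SE 0.20, edgeR adjusted p = 0.62). Which cells its reads came from was not tested.

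Blood markers had 7 of 7 below 0, none with an unadjusted p below 0.05, and a median of -0.30, with sums of 65.6 to 224.5 CPM in XXSry and 48.0 to 215.7 CPM in XY-Sry libraries. Endothelial and mural markers had 13 of 15 below 0, 6 with an unadjusted p below 0.05 in the lower direction, and a median of -0.083. Their sums were again highest in XY-Sry replicates 38 (494.2 CPM) and 7 (467.3 CPM), against 373.6 to 443.3 CPM in XXSry libraries. Oligodendrocyte markers had 13 of 13 below 0, none with an unadjusted p below 0.05, and a median of -0.14. Astrocyte markers had 11 of 12 below 0, 3 with an unadjusted p below 0.05 in the lower direction, and a median of -0.053. Markers of oligodendrocyte precursors had 8 of 10 below 0, none with an unadjusted p below 0.05, and a median of -0.049. Those of choroid plexus and ependyma had 6 of 6 below 0, 1 with an unadjusted p below 0.05, and a median of -0.19. No marker measured in these lists was at 0 in all 24 libraries. The part of these tissues in the called genes was not tested.

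In control and in stressed mice all 18 called genes had values on the side of 0 that they had over both, which their choice from these same libraries favours. Within controls 1 autosomal gene was called (0.00576%), Obox3-ps7, and within stressed mice 12 were (0.0692%), 11 of them lower in XXSry. Both counts come from 1 edgeR fit of all 24 libraries, and separate fits of the 12 control and the 12 stressed libraries called 17 and 6 genes, of which 2 and 4 were among the 18. The interaction of genotype with treatment called 0 of 17353 genes in edgeR (0%) and 0 in DESeq2, with 991 at an unadjusted p below 0.05 in edgeR and a smallest adjusted p of 0.49. Cohorts were unevenly shared within treatments as well. In cohorts 1, 2 and 3 there were 4, 2 and 0 XXSry controls and 1, 4 and 1 XY-Sry controls. Stressed mice numbered 5, 0 and 1 for XXSry and 2, 1 and 3 for XY-Sry. Ctss had means, not adjusted for cohort, of 53.4 ± 4.48 and 60.7 ± 2.65 CPM in XXSry and XY-Sry controls. In XXSry and XY-Sry stressed mice Ctss had 49.6 ± 2.17 and 62.4 ± 6.44 CPM (SD, n = 6 each). Its log2FC values were -0.19 (SE 0.062) in controls and -0.32 (SE 0.063) in stressed mice, with an interaction of -0.13 (SE 0.083, edgeR adjusted p = 0.87). Rsad2 went the other way, with -0.72 (SE 0.19) in controls and -0.57 (SE 0.19) in stressed mice and an interaction of 0.15 (SE 0.25, edgeR adjusted p = 0.95). The smallest p of the interaction belonged to S100a1, a calcium-binding protein, at 0.066 in controls and -0.26 in stressed mice (difference -0.32, SE 0.068, edgeR adjusted p = 0.49). Next was Rpl35, a ribosomal protein, at 0.10 and -0.14 (difference -0.24, SE 0.056, edgeR adjusted p = 0.70).

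Each cohort was also fitted alone. Every called gene had the same sign in each, but since the genes were chosen on these same libraries this is a description and no separate support. Cohort 1 had 9 XXSry and 3 XY-Sry mice, cohort 2 had 2 and 5, and cohort 3 had a lone XXSry mouse against 4. Fits of cohort 1, 2 and 3 called 23, 2 and 6 autosomal genes, of which 6, 0 and 0 were among the 18. Of the effectors, Lgals3bp had log2FC values of -0.55, -0.43 and -0.60 in cohorts 1, 2 and 3, and Rsad2 had -0.64, -0.78 and -0.51. The MHC chains and phagocyte genes were closer to 0 in cohort 2, with -0.51, -0.16 and -0.49 for H2-K1, -0.34, -0.11 and -0.39 for Ctss and -0.57, -0.12 and -0.39 for Pld4. Gbp7 was closest to 0 in cohort 3 (-0.45, -0.49 and -0.093). In the same order Actb had -0.17, -0.13 and -0.28. Differences between cohorts were not tested, and the lone XXSry mouse of cohort 3 is assumed to vary like the XY-Sry mice.

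**Figure D4:**
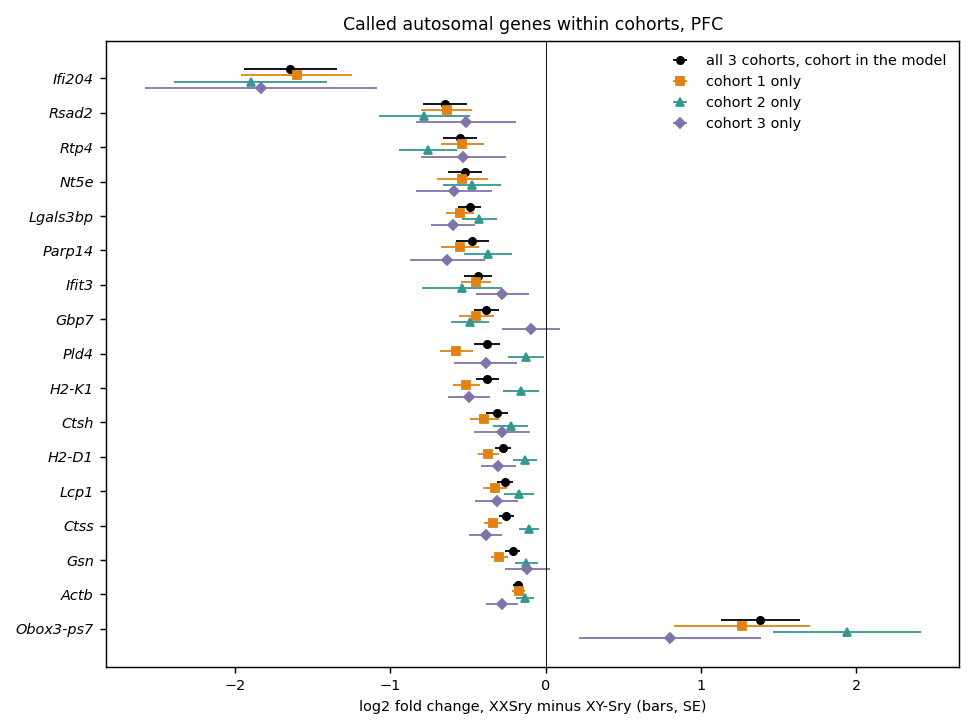
Log2FC of XXSry minus XY-Sry in the PFC for each called gene described, from the fit of all 3 cohorts (black) and from each cohort alone (colours); bars are SE. All points of the lower genes shown lie left of 0, and those of H2-K1, Ctss and Pld4 are closest to 0 in cohort 2.

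Mice with ovaries, which carry no Sry transgene, gave an independent set of animals for the same chromosome difference, XX (n = 11) minus XY- (n = 13). There 18 of 17387 autosomal genes were called (0.104%), 12 lower (0.069%) and 6 higher (0.0345%) in XX. Of the 18 genes called in mice with testes, all 18 had the same sign with ovaries, 16 with an unadjusted p below 0.05. Over 17220 autosomal genes tested in both, 58.3% had the same sign. With ovaries 1585 of 17387 autosomal genes had an unadjusted p below 0.05, in either direction. Only Actb was called in both, which is 5.56% of the genes called with testes and 5.88% of the 17 called with ovaries that were tested in both. Its mean was 719 ± 18.7 CPM in the 11 XX libraries and 826 ± 33.8 CPM (SD) in the 13 XY- libraries, a log2FC of -0.20 (SE 0.022, edgeR adjusted p = 1.5e-06).

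A single library widened the spread with ovaries. XY- stress replicate 32 held the highest XY- value of 15 of the 18 genes, for example 70.7 CPM of Lgals3bp, whose XY- median was 17.1 CPM. Without it 38 genes were called (0.219%), and 5 of them were among the 18: Lgals3bp, Actb, Ifi204, Ctss and Pld4. These are 27.8% of the genes called with testes and 13.5% of the 37 called with ovaries that were tested in both. Lgals3bp then had a log2FC of -0.66 with ovaries (edgeR adjusted p = 0.00083), against -0.90 (edgeR adjusted p = 0.18) with that library in. The median of the 54 interferon effectors was -0.42 with it and -0.27 without it, that of 17 GTPases -0.44 and -0.31, and that of 23 MHC class I genes -0.26 and -0.16.

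Nt5e and Gsn, outside the interferon group, show how the gonad types compared for single genes. Nt5e had means of 2.05 ± 0.216 CPM in XX and 2.76 ± 0.588 CPM in XY- mice (log2FC -0.41, SE 0.10, edgeR adjusted p = 0.12). Gsn had 21.6 ± 1.66 and 22.7 ± 2.75 CPM (log2FC -0.074, SE 0.054, edgeR adjusted p = 0.73), and Obox3-ps7 had 0.170 ± 0.0927 and 0.144 ± 0.0794 CPM (log2FC 0.37, SE 0.32, edgeR adjusted p = 0.78). The test of the difference between gonad types, an interaction over 48 libraries, called 0 of 18030 autosomal genes in edgeR (0%) and 1 in DESeq2, with 777 at an unadjusted p below 0.05 in edgeR. Its smallest adjusted p was 0.23, for the predicted gene Gm42735, and next was Ky, a muscle protein gene, with a difference of -0.67 (SE 0.15, edgeR adjusted p = 0.44).

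**Figure D5:**
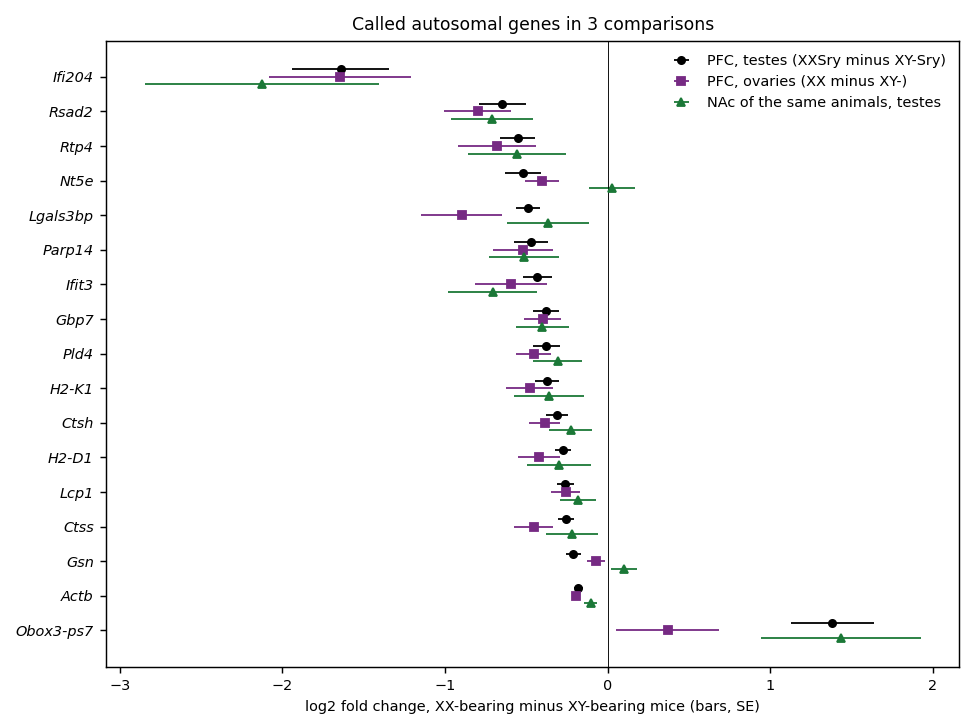
Log2FC with SE for each called gene described, in the PFC of mice with testes (black), the PFC of mice with ovaries (purple) and the NAc of the same animals with testes (green). The genes lower in the first comparison lie left of 0 in the second, and Nt5e and Gsn lie right of 0 in the NAc.

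In the NAc of the same 24 animals no autosomal gene was called, 0 of 17640 (0%) in edgeR and 2 in DESeq2, with 981 at an unadjusted p below 0.05 in edgeR. The animals are shared, so the NAc values are not independent of those in the PFC. Of the 18 genes, 15 had the same sign there, 7 with an unadjusted p below 0.05, and over 16799 autosomal genes tested in both regions 47.9% had the same sign. Interferon effectors had 51 of 53 below 0 and a median of -0.37, and 14 of 14 GTPases were below 0 with a median of -0.60. XY-Sry control replicate 33, whose mean level of interferon effectors was the highest in the PFC, held the highest XY-Sry value of 14 of the 18 genes, with 30.8 CPM of Ifit3 against 6.07 CPM in the highest XXSry library. Without it 0 genes were called, 9 of the 18 had the same sign with an unadjusted p below 0.05, the effectors had 48 of 53 below 0 and a median of -0.26, and the GTPases a median of -0.45. Lgals3bp moved from -0.37 to -0.14 and H2-K1 from -0.36 to -0.16, while Ifit3 had -0.71 with it and -0.49 without it.

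Nt5e and Gsn were among the genes with values above 0 in the NAc. Nt5e had means, not adjusted for treatment or cohort, of 19.9 ± 4.14 CPM in XXSry and 21.1 ± 4.96 CPM in XY-Sry NAc libraries (SD, n = 12 each). With treatment and cohort in the model its log2FC was 0.026 (SE 0.14), opposite in direction to these means. Its difference between regions was -0.54 (SE 0.19, edgeR adjusted p = 0.78). Gsn had a difference of -0.31 (SE 0.094, edgeR adjusted p = 0.78). Over 18556 autosomal genes the test of the difference between regions called 0 in edgeR (0%) and 2 in DESeq2, with 1108 at an unadjusted p below 0.05 in edgeR. The 2 genes with the smallest p were Six3, a transcription factor of striatal neurons (difference -3.13, SE 0.70), and Drd2 (difference -1.32, SE 0.30), each with an edgeR adjusted p of 0.35. These region differences come from a fit with no term for the animal, though both regions came from the same animals. With the animal as a replicate block the test called 0 genes, with a smallest edgeR adjusted p of 0.076.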

How the data were processed

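RNA of tissue punches was sequenced as polyadenylated libraries, with paired reads of 50 bp, per the labels' protocols. The deposited tables hold raw counts per gene, 1 column per library, made by the authors; the tools named, with no roles stated, per the submitters' processing notes, were HISAT2 2.2.0, Trimmomatic 0.38, FastQC 0.11.9, DESeq2 and edgeR, and the build was GRCm38. How reads were counted, with or without strand, is not given in the sources used here, so 8335 of 19046 autosomal genes that overlap an annotated gene on the opposite strand are uncertain. Totals exceed the stated 45 M reads per sample. Gene positions came from GENCODE M21, which held 19795 of 19918 gene IDs. Each PFC column was matched to its library by name, and 0 columns were left unused.

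The test was that of edgeR 4.0.16 (quasi-likelihood, robust, TMM, filterByExpr with a minimum count of 10) in R 4.3.3, on the 24 libraries with treatment and cohort as covariates. Benjamini-Hochberg adjustment ran over all 18125 genes tested, autosomal or not, and autosomal rows are described. XX minus XY- (24 libraries) and the NAc (24) were fitted alike, and interactions with gonad or region over 48 libraries. DESeq2 1.42.0, limma 3.58.1 (voom), other scaling, filters, covariates and subsets, and leaving out each library, were the alternatives. The code was tested on simulated counts. The smallest chi-square per degree of freedom over 60 pairs of libraries of one group was 6.60, so none repeated another.

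Genes described are those called with at least 0 log2 CPM on average and no predicted-gene name: the 12 highest and 12 lowest fold changes and the 8 smallest p, or 5 genes as values where fewer than 5 were called, plus called and up to 4 further members of each list. The comparison, the members of the lists and the rule were chosen with earlier results of these data known. PFC and NAc libraries pair by animal, from the animal number in the titles: the median correlation of an animal's deviations from group means was 0.117 over 11568 genes, with 14 of 24 values above 0.1, and for 4 animals the own partner was the best match. No chance level is given for these values, so the pairing rests on the titles. A called gene that the rule would name is counted but not reported here.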

Additional observations from a re-analysis of the deposited data

Results flagged for a closer look

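Among 96 groups of 6 libraries of the genes described and of total counts, 6 had a library far from the other 5, where chance gives about 1 in 20. In XXSry stressed mice, replicate 52 had 2.80 CPM of Nt5e against 1.83 to 2.09 in the others. In the same group replicate 12 was the highest for both Lgals3bp (12.1 CPM against 9.12 to 10.2) and Mlph (2.36 CPM against 1.65 to 1.84). XY-Sry stress replicate 7 had 26.4 CPM of H2-D1, against 19.6 to 21.5 in the others. XY-Sry control replicate 33 had the lowest Actb level of its group, 744.4 CPM against 818.0 to 846.0, and the lowest total count, 67.6 M against 83.3 to 88.8 M. Without replicate 33 the log2 fold change of Actb was -0.19, against -0.18 with it.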

How the results depend on the processing

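All 18 called genes kept their sign in every one of 38 alternative settings that tested them, which reuse the libraries the genes were chosen on. Against 18 called autosomal genes, DESeq2 called 51, limma-voom 14, a fit of all 48 PFC libraries 6 (1 of them among the 18), cohort 2 alone 2, cohort 3 alone 6, and stressed mice alone 6. Leaving out each library gave 5 to 38. Of single genes Actb, H2-D1, Ifi204, Lgals3bp and Obox3-ps7 were called in 24 of 24 such fits, and Pld4 and Gsn in 6. Mlph, not called, passed without cohort in the model (edgeR adjusted p = 0.0062) and in the fit of 48 libraries (edgeR adjusted p = 0.013). Traip, not called, had a log2 fold change of -0.032 in cohort 3 alone. The number called without cohort in the model was 18, of which 10 were shared. DESeq2 called 99 genes for XX minus XY-, 1 for the difference between gonad types, 2 for the NAc and 2 for the difference between regions. Chosen after seeing the data, XX minus XY- without replicate 32 gave 38, and the NAc and the region difference without replicate 33 gave 0. With the animal as a replicate block the region difference called 0 (1201 at an unadjusted p below 0.05, smallest adjusted p 0.076 in edgeR), and the block changed no call. The cause of these changes was not tested. Counts with 1 or 3 mice in an arm rest on spread estimated from few animals, and genes below 1 CPM on few reads.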

Other observations

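The 18 autosomal genes called in XX minus XY- mice with ovaries were looked up in mice with testes. There 17 were tested, 16 had the same sign and 11 of these had an unadjusted p below 0.05. Over all autosomal genes 58.3% had the same sign, and 1124 of 17353 had an unadjusted p below 0.05 with testes, in either direction. Fcrls, the Fc receptor-like scavenger of microglia, had a log2 fold change of 0.40 with ovaries (edgeR adjusted p = 0.00049) and 0.21 with testes (edgeR adjusted p = 0.35). Mlph had 0.54 (edgeR adjusted p = 0.029) and 0.52 (edgeR adjusted p = 0.11). Actg1 had -0.16 (edgeR adjusted p = 0.0035) and -0.13 (edgeR adjusted p = 0.49). Ifi207, a relative of Ifi204, had -1.91 and -1.09, and Ddx60, an antiviral helicase, had -1.17 and -0.51, both called with ovaries and with edgeR adjusted p = 0.23 and 0.47 with testes. Lcn2, the secreted iron-binding protein lipocalin 2, had -2.33 and -0.77 (edgeR adjusted p = 0.95 with testes). Ky was the 1 gene of opposite sign, at 0.53 with ovaries and -0.085 with testes. For the difference between gonad types the edgeR adjusted p was 0.44 for Ky and 0.99 for Fcrls, Ifi207, Ddx60 and Lcn2.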
